A study of Mus musculus with 11 samples.

Results

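NF-kB is a family of dimeric transcription factors held inactive by inhibitor (IkB) proteins, and 10 of its genes were followed across 11 RNA-seq libraries of mouse bone marrow cells. They were taken by name: the subunit genes Nfkb1, Nfkb2, Rel and Relb, the IkB-family genes Nfkbia, Nfkbie, Nfkbiz and Bcl3, the feedback inhibitor gene Tnfaip3 and the target gene Ptgs2. All 10 are among the 23444 rows of the expression table, and all 10 passed the filter on low values that left 11442 genes for testing. The comparison behind the series is between inhibitors of FOS and Dusp1 and the loss of both genes, in cells made leukaemic with BCR/ABL, the fusion kinase found in chronic myeloid leukaemia.

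The cells were Kit+ bone marrow cells of C57BL/6 mice, selected with CD117 beads and kept overnight with FLT3, IL-6, IL-3 and mSCF. For the BCR/ABL groups they were transduced with a virus carrying BCR/ABL and YFP, and YFP-positive cells were sorted. Of the 7 groups, 4 had wild-type BCR/ABL cells with 2 libraries each: untreated, imatinib (IM, an inhibitor of the BCR/ABL kinase), DFC+BCI (given together against FOS and Dusp1), and all 3 drugs. Each drug treatment lasted 4 h. The other 3 groups had 1 library each and so no replicate check: a vector control, untreated BCR/ABL cells labelled c-Fos-/-Dusp1-/-, and such cells with imatinib for 4 h. The mice behind the last 2 groups are given as ROSACreERT2 c-Fos fl/fl Dusp1-/-, so that loss of Fos needs an activated Cre. When and how Cre was activated, and how the vector control was made, are not given in the sources used here. All groups shared the Kit selection and the cytokines, no group is labelled as given vehicle alone, and no source says whether duplicates came from different animals, so the p-values measure the spread between these libraries, which may be technical.

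In resting cells, NF-kB dimers are kept in the cytoplasm by IkB proteins. Receptor signals activate the IKK kinases, which mark IkB proteins for destruction, and the freed dimers enter the nucleus and switch on target genes. Several of those targets encode the pathway's own inhibitors and subunits, so their RNA is often read as a trace of recent activity, and in myeloid cells the pathway is best known for driving inflammatory genes.

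The stretch around the gene start is shown for 5 of the genes, because kB sites there are the textbook binding sites of these same factors. RefSeq windows (GRCm38.p6, 300 bases around a start) were at hand for 7 of the 10 genes, as 10 windows. The windows printed 5′ to 3′ are those of Rel (chr11:23770920-23771219, minus strand), Nfkbia (chr12:55492598-55492897, minus strand), Tnfaip3 (chr10:19015361-19015660, minus strand), Nfkb2 (chr19:46304487-46304786, plus strand) and Ptgs2 (chr1:150099781-150100080, plus strand). Capitals mark matches to the kB consensus or, in Tnfaip3 alone of these 5, also to TGANTCA, a loose form of the AP-1 motif bound by FOS-JUN dimers.
Rel: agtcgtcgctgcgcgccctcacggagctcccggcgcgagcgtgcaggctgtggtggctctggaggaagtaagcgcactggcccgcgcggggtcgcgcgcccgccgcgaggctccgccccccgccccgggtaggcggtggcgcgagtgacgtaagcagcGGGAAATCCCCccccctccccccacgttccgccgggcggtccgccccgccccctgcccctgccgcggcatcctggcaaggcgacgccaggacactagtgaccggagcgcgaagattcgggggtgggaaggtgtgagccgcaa
Nfkbia: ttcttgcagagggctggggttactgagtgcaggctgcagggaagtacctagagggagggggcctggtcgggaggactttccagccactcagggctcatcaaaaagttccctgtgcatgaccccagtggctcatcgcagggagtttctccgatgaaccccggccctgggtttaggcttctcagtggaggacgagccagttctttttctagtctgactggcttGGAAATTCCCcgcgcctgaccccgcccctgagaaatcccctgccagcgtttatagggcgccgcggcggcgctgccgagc
Tnfaip3: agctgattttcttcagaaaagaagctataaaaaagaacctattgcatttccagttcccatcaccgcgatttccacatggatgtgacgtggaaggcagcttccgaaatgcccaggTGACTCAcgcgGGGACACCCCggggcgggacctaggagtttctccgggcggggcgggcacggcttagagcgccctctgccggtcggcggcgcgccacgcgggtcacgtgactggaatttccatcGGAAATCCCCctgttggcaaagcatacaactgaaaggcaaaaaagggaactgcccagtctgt
Nfkb2: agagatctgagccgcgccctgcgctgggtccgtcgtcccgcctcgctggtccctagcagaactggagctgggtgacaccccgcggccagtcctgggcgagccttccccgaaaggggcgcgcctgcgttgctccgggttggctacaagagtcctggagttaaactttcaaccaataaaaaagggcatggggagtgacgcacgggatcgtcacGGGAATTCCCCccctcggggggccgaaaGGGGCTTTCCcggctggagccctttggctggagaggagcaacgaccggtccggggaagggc
Ptgs2: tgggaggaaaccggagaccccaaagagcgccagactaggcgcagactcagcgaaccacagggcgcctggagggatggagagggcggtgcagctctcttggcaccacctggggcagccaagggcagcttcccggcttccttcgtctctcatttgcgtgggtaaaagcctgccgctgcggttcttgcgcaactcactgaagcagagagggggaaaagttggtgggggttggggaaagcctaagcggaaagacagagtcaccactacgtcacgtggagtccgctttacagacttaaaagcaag

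The kB consensus, searched on both strands, matched in 6 of the 7 genes with a window and in 8 of the 10 windows, against 5.14% of all 27025 genes with a window and 4.51% of all 32851 RefSeq windows. Counted from 1 at the RefSeq start, the matches lie at -92 to -82 in Rel (overlapping matches), -29 to -20 in Nfkbia, and -125 to -116 and -12 to -3 in Tnfaip3. In Nfkb2 they lie at -39 to -29 (overlapping matches) and -11 to -2 in the printed window, at -236 to -227 and 11 to 20 in another, and at -225 to -216 in the last. The windows of Nfkb2 that are not printed overlap each other. The matches at 11 to 20 and -225 to -216 are the same bases, so this site is counted in both windows. In Bcl3 and Nfkbie they lie at 3 to 12 and -106 to -97. TGANTCA matched in 3 of the 7 genes (Tnfaip3 at -136 to -130, Nfkbie at -156 to -150, and another Nfkb2 window at -210 to -204), against 8.97% of all genes with a window, and did not overlap a kB match. The Ptgs2 window held neither motif, which says only that these letters are not in these 300 bases. The windows of these genes were 47.0% to 75.0% G and C, the shares over all windows were not matched on base composition, and a match is a description of sequence and not a bound site.

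Deposited FPKM, a level corrected for transcript length and library depth, summed to 459559 to 529427 per library, and duplicates correlated at 0.986 to 0.990 across genes. Read depth is unknown, but relative depth estimated from the low values was 1.84 in the vector library and 0.939 to 1.24 in the others, set to 1 in library a of DFC+BCI. Stem and progenitor markers were present, with 7 of 7 at 1 FPKM or more in every group, and Kit stood at 34.5 FPKM in the vector library and 5.803 to 12.4 FPKM in the BCR/ABL libraries. Neutrophil markers summed to far more, 12406 to 23288 FPKM in the BCR/ABL libraries against 3388 FPKM in the vector library. S100a8 and S100a9 were the largest terms of that sum in every library. No T cell marker reached 1 FPKM, with Cd3e at 0 in 9 of the 11 libraries. The labelled deletion is not seen in gene-level RNA: the libraries so labelled had 21.6 and 15.9 FPKM of Fos and 35.7 and 28.1 FPKM of Dusp1. Untreated BCR/ABL cells had less, 4.81 to 5.09 and 8.22 to 8.46 FPKM, as did cells with imatinib alone (6.79 to 7.42 and 7.56 to 8.63 FPKM). Libraries given DFC+BCI had more, 28.0 to 32.4 and 102 to 133 FPKM. The vector library had 125 FPKM of Fos and 16.9 FPKM of Dusp1. A gene-level value does not show whether the RNA comes from an intact gene, so these libraries labelled deleted are called by their label throughout.

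DFC+BCI raised 8 of the 10 genes above untreated BCR/ABL cells, where 17.8% of all genes tested rose and 18.4% fell. Ptgs2 and Nfkbiz rose most, by 2.02 and 1.99 on the log2(FPKM + 1) scale, followed by Rel (1.55), Tnfaip3 (1.44), Bcl3 (1.03), Nfkbie (0.94), Nfkbia (0.71) and Relb (0.70). Nfkb1 and Nfkb2, which encode the precursor subunits p105 and p100, did not pass the test. The median over the 10 genes was 0.98, against -0.03 over all genes tested. In bulk RNA such as this, fewer cells of a type and less RNA per cell cannot be told apart.

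**Figure D1:**
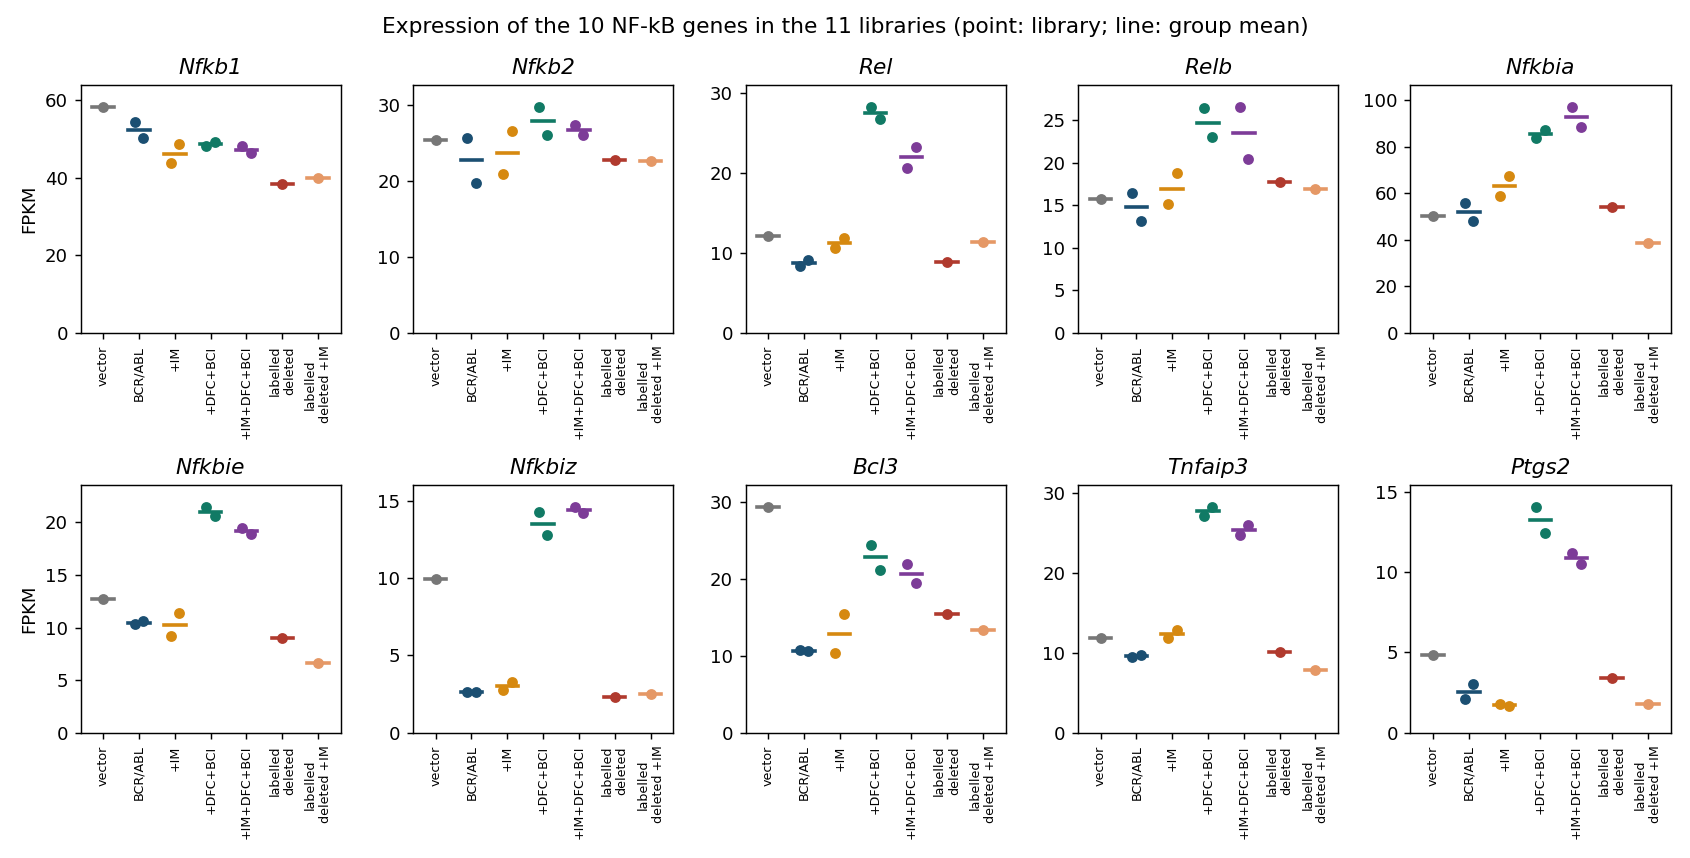
FPKM (linear axes from 0) of each of the 10 genes in every library, with 1 point per library and a line at the group mean, for the vector control, the 4 wild-type BCR/ABL groups and the 2 groups labelled deleted. For Rel, Relb, Nfkbia, Nfkbie, Nfkbiz, Tnfaip3 and Ptgs2 the 4 libraries with DFC+BCI lie above all 7 others; for Bcl3 the vector library is higher still.

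Among the subunits, Rel (chromosome 11, 23736847 to 23770970 in GRCm38, minus strand), the gene of the activating subunit c-Rel, moved most. It read 8.39 and 9.10 FPKM in the untreated libraries and 28.2 and 26.7 FPKM with DFC+BCI, a log2 fold change of 1.55 (SE 0.0878, limma adjusted p = 3.28e-05). With all 3 drugs it read 20.6 and 23.3 FPKM, with imatinib 10.6 and 11.9 FPKM, in the vector library 12.1 FPKM, and in the libraries labelled deleted 8.88 and, with imatinib, 11.4 FPKM. Every library given DFC+BCI thus lay above every library that was not, while the vector library and the libraries given imatinib without DFC+BCI lay together between 10.6 and 12.1 FPKM. Relb (chromosome 7, 19606217 to 19629438, minus strand), whose product pairs with the p52 form of Nfkb2 in the non-canonical branch, read 16.5 and 13.1 FPKM untreated and 26.3 and 23.0 FPKM with DFC+BCI. The 2 ranges did not overlap, and the log2 fold change was 0.70 (SE 0.164, limma adjusted p = 0.0146). This is the least firm of the 8 calls: without library a of DFC+BCI the adjusted p was 0.0973, and without untreated library b it was 0.0681. Relb read 26.5 and 20.4 FPKM with all 3 drugs, 15.1 and 18.8 FPKM with imatinib, 15.8 FPKM with the vector, and 17.7 FPKM (untreated) and 16.8 FPKM (imatinib) under the deletion label, so every library without DFC+BCI read 13.1 to 18.8 FPKM.

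Nfkb1 (chromosome 3, 135584655 to 135691547, minus strand) was the most abundant of the 4 subunit genes in every library. It read 54.4 and 50.3 FPKM untreated, 48.1 and 49.1 FPKM with DFC+BCI, 48.1 and 46.4 FPKM with all 3 drugs, 43.7 and 48.6 FPKM with imatinib, 58.1 FPKM with the vector, and 38.3 FPKM (untreated) and 40.0 FPKM (imatinib) under the deletion label. The DFC+BCI difference was -0.10 (95% interval -0.27 to 0.07, limma adjusted p = 0.301), and it became 0.01 when libraries were scaled to equal totals. Nfkb2 (chromosome 19, 46304320 to 46312385, plus strand) read 25.7 and 19.8 FPKM untreated and 29.7 and 26.0 FPKM with DFC+BCI, with a difference of 0.29 (95% interval -0.06 to 0.64, limma adjusted p = 0.169). With equal totals it passed the test (adjusted p = 0.0294). Its remaining values ran from 20.9 to 27.4 FPKM, with no group apart from the others, and its start window, like those of Rel and Nfkbia, holds kB matches. Rela, the main partner subunit and not one of the 10, read 24.9 to 33.7 FPKM over all libraries and did not pass (log2 fold change 0.15 with DFC+BCI, limma adjusted p = 0.213).

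The inhibitor genes Nfkbia and Nfkbie rose with DFC+BCI, while Nfkbib, the gene of IkBβ and not one of the 10, did not pass (0.52, limma adjusted p = 0.110). Nfkbia (chromosome 12, 55489410 to 55492647, minus strand) encodes IkBα, the inhibitor that is destroyed on activation and remade as a target gene. It was the most abundant of the 10 genes in 8 of the 11 libraries (Nfkb1 was higher in the other 3), with 55.8 and 48.2 FPKM untreated, 83.9 and 87.0 FPKM with DFC+BCI, and 96.9 and 88.7 FPKM with all 3 drugs. Imatinib gave 59.0 and 67.6 FPKM, the vector library 50.3 FPKM, and the libraries labelled deleted 53.9 and, with imatinib, 38.8 FPKM, the lowest of all. Its log2 fold change with DFC+BCI was 0.71 (SE 0.0967, limma adjusted p = 0.00166). Nfkbie (chromosome 17, 45555703 to 45563169, plus strand), the gene of IkBε, read 10.4 and 10.6 FPKM untreated and 21.4 and 20.6 FPKM with DFC+BCI (log2 fold change 0.94, SE 0.0953, limma adjusted p = 0.000451). It read 19.5 and 18.9 FPKM with all 3 drugs, and between 6.68 and 12.7 FPKM in the 5 libraries with imatinib, vector or a deletion label, so that both inhibitors had DFC+BCI libraries above all others.

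The nuclear IkB-family genes, whose products act on NF-kB dimers at DNA, moved further. Nfkbiz (chromosome 16, 55811375 to 55838899, minus strand) encodes IkBζ, a co-activator of secondary inflammatory genes. It was steady at 2.63 and 2.64 FPKM untreated and at 14.3 and 12.8 FPKM with DFC+BCI, a log2 fold change of 1.99 (SE 0.0900, limma adjusted p = 1.37e-05). It read 14.6 and 14.2 FPKM with all 3 drugs, 2.73 and 3.29 FPKM with imatinib, and 2.34 and 2.51 FPKM under the deletion label, while the vector library stood between, at 9.95 FPKM. Bcl3 (chromosome 7, 19808462 to 19822770, minus strand), whose product binds p50 and p52 dimers, read 10.7 and 10.6 FPKM untreated and 24.4 and 21.2 FPKM with DFC+BCI (log2 fold change 1.03, SE 0.165, limma adjusted p = 0.00328). With all 3 drugs it read 21.9 and 19.4 FPKM, with imatinib 10.3 and 15.4 FPKM, and in the libraries labelled deleted 15.4 and 13.4 FPKM. The vector library was highest of all, at 29.3 FPKM.

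Tnfaip3 (chromosome 10, 19000910 to 19015657, minus strand) encodes A20, an enzyme that edits ubiquitin chains and shuts down signalling to IKK. It read 9.51 and 9.73 FPKM untreated, 27.2 and 28.2 FPKM with DFC+BCI, and 24.8 and 26.0 FPKM with all 3 drugs. Imatinib gave 11.9 and 12.8 FPKM, the vector library 11.9 FPKM, and the libraries labelled deleted 10.1 and, with imatinib, 7.85 FPKM. The drug pair's log2 fold change was 1.44 (SE 0.0645, limma adjusted p = 1.35e-05). Ptgs2 (chromosome 1, 150100031 to 150108227, plus strand) encodes cyclooxygenase-2, the inducible enzyme of prostaglandin synthesis, and was the lowest or next lowest of the 10 genes in every library. It read 2.08 and 3.01 FPKM untreated and 14.0 and 12.4 FPKM with DFC+BCI, a log2 fold change of 2.02 (SE 0.129, limma adjusted p = 5.69e-05). It read 11.2 and 10.5 FPKM with all 3 drugs, 1.81 and 1.69 FPKM with imatinib, 4.82 FPKM with the vector, and 3.41 FPKM (untreated) and 1.81 FPKM (imatinib) under the deletion label.

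Other measures moved with DFC+BCI too. Stem and progenitor markers (7 of 7 measured, none at 0) summed to 133.8 to 146.2 FPKM untreated and 89.2 to 93.0 FPKM with DFC+BCI, neutrophil markers (7 of 7, none at 0) to 20671 to 21772 and 13130 to 13649 FPKM, and monocyte markers (6 of 7 in the table, none at 0) to 1354 to 1378 and 1127 to 1138 FPKM. Within the neutrophil sum, Elane, Mpo and Prtn3 overlapped between these groups. The part of these markers in the rise of the NF-kB genes was not tested. Of all genes, 2041 rose and 2107 fell, and with equal totals per library 2596 rose and 982 fell, with the median of all genes moving from -0.03 to 0.06. All 8 member calls held under that scaling.

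**Figure D2:**
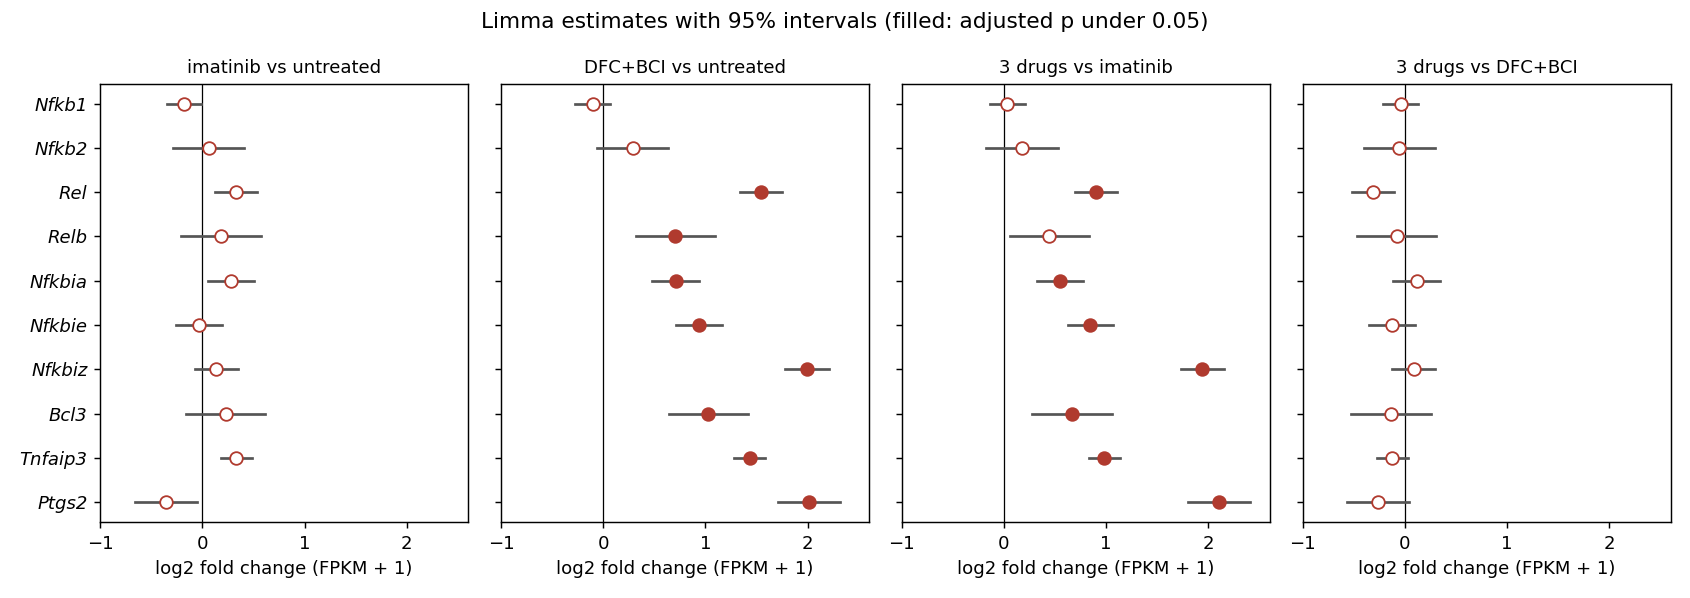
Limma log2 fold changes on the log2(FPKM + 1) scale, with 95% intervals as lines, for the 10 genes in 4 comparisons between replicated groups; filled points passed an adjusted p of 0.05. The 8 filled points for DFC+BCI run from 0.70 to 2.02, 7 are filled for 3 drugs against imatinib, and none is filled for imatinib alone or for 3 drugs against DFC+BCI.

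With imatinib present, adding DFC+BCI again raised most of the genes. Against imatinib alone, all 3 drugs raised 7 of the 10 genes, where 18.6% of all genes rose and 16.0% fell. The rises were 2.11 for Ptgs2, 1.94 for Nfkbiz, 0.98 for Tnfaip3, 0.90 for Rel, 0.85 for Nfkbie, 0.67 for Bcl3 and 0.55 for Nfkbia (limma adjusted p = 1.48e-05 to 0.0190). Relb was at 0.44 (95% interval 0.06 to 0.83, limma adjusted p = 0.0760), and it passed with equal totals (adjusted p = 0.0145). Bcl3 lost its call without library a of all 3 drugs (adjusted p = 0.0933), without library b of all 3 drugs (0.0508) and without library a of imatinib (0.05004). Against untreated cells, 8 of the 10 rose, where 17.2% of all genes did and 15.6% fell, from 0.63 for Relb to 2.08 for Nfkbiz. Here too Relb was the least firm (limma adjusted p = 0.0250, but 0.123 without library a of all 3 drugs and 0.113 without untreated library b). These comparisons share libraries with each other and with the DFC+BCI comparison. Over all genes, 2127 rose and 1828 fell against imatinib (2716 and 1048 with equal totals), and 1964 rose and 1790 fell against untreated cells (2418 and 989 with equal totals).

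Adding imatinib to DFC+BCI gave no call among the 10 genes, where 0.114% of all genes tested passed in either direction. Rel showed the largest difference, 20.6 and 23.3 FPKM against 28.2 and 26.7 FPKM (-0.31, 95% interval -0.52 to -0.11, limma adjusted p = 0.382). It was the 1 of 10 genes with an unadjusted p under 0.05, against 9.20% of all genes. A direct test of whether imatinib acted differently with the pair present also gave 0 calls of 10, against 0.149% of all genes. Its largest estimates were for Rel (-0.64, SE 0.124, limma adjusted p = 0.131) and Tnfaip3 (-0.45, SE 0.0912, limma adjusted p = 0.140). Both genes were higher with imatinib than untreated when given alone, and lower with all 3 drugs than with DFC+BCI, and neither of those differences passed the test.

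Imatinib alone moved the 10 genes little, and 0 of 10 passed, where 2.11% of all genes did. Tnfaip3 came nearest: 11.9 and 12.8 FPKM with imatinib lay above 9.51 and 9.73 FPKM untreated (0.33, SE 0.0645, limma adjusted p = 0.0540). Rel was at 0.33 (limma adjusted p = 0.129), Nfkbia at 0.28 (0.233), Nfkb1 at -0.18 (0.310) and Ptgs2 at -0.35 (95% interval -0.66 to -0.05, limma adjusted p = 0.261). Those 5 genes had an unadjusted p under 0.05, against 15.0% of all genes. For Nfkbie, Relb, Nfkb2 and Bcl3 the 2 groups overlapped. The median over the 10 genes was 0.16, against -0.01 over all genes. Tnfaip3 passed when the pseudocount was 0.1 (adjusted p = 0.0491) or when genes needed 5 FPKM (0.0446).

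The vector library was compared with untreated BCR/ABL cells by size only, counting a gene where the higher group had 5 FPKM or more and each untreated library was at least 1 log2 unit away. Nfkbiz (1.59) and Bcl3 (1.38) were higher in the vector library by that rule, 2 of 10 genes, where 4.68% of all genes were higher and 3.32% lower. Ptgs2 was at 0.73, Rel at 0.43, Tnfaip3 at 0.28, Nfkbie at 0.26, and the other 4 genes lay between -0.04 and 0.17. The neutrophil markers summed to less in the vector library (3388 FPKM against 20671 to 21772 FPKM), with S100a8, S100a9, Ltf and Cebpe lower. Mpo went the other way (637 FPKM against 177 to 234 FPKM), and Elane and Prtn3 lay within the untreated range. Mast cell and basophil markers (6 of 6, none at 0) summed to 1511 FPKM against 552.0 to 578.1 FPKM untreated. Of these, Gata1 was lower (11.6 FPKM against 16.9 and 14.7 FPKM) and Il1rl1 little higher (41.3 FPKM against 36.2 and 38.8 FPKM). Stem and progenitor markers in the vector library summed to 268.6 FPKM against 133.8 to 146.2 FPKM, although Meis1 was lower (5.40 FPKM against 7.66 and 7.68 FPKM). Dendritic cell markers there summed to 51.9 FPKM (3 of 5 at 1 FPKM or more) against 3.40 to 3.41 FPKM (2 of 5). Most of that sum was Flt3 (40.9 FPKM against 1.95 and 2.00 FPKM), which is also on the stem and progenitor list. Siglech and Clec9a were higher too, while Zbtb46 and Xcr1 were lower than in both untreated libraries. The part of cell makeup in Nfkbiz and Bcl3 was not tested, and with 1 library it cannot be told apart from the vector itself.

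In the libraries labelled deleted, 0 of the 10 genes met that size rule. Against untreated BCR/ABL cells, where 3.42% of all genes were higher and 2.02% lower, the differences ran from -0.44 for Nfkb1 to 0.50 for Bcl3. Nfkbiz (2.34 FPKM), Rel (8.88 FPKM) and Tnfaip3 (10.1 FPKM), which DFC+BCI raised by 1.44 or more, differed from untreated cells by -0.12, 0.02 and 0.07. Ptgs2, which DFC+BCI raised by 2.02, was 0.33 higher than untreated cells (0.14 and 0.52 from each library). With imatinib in both, where 1.88% of all genes were higher and 1.28% lower, the lowest were Nfkbia (-0.69), Tnfaip3 (-0.59) and Nfkbie (-0.55). Within the cells labelled deleted, imatinib gave -0.65 for Ptgs2, -0.46 for Nfkbia, -0.38 for Nfkbie, -0.33 for Tnfaip3 and 0.32 for Rel, where 0.105% of all genes were higher and 0.271% lower by the rule. Mast cell and basophil markers summed to 101.4 and 137.0 FPKM in these 2 libraries, and stem and progenitor markers to 72.4 and 79.6 FPKM, both below every other group. Neutrophil markers summed to 12406 and 13786 FPKM, against 20671 to 21772 FPKM in untreated cells. None of these markers was at 0, and their part in these values was not tested.

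**Figure D3:**
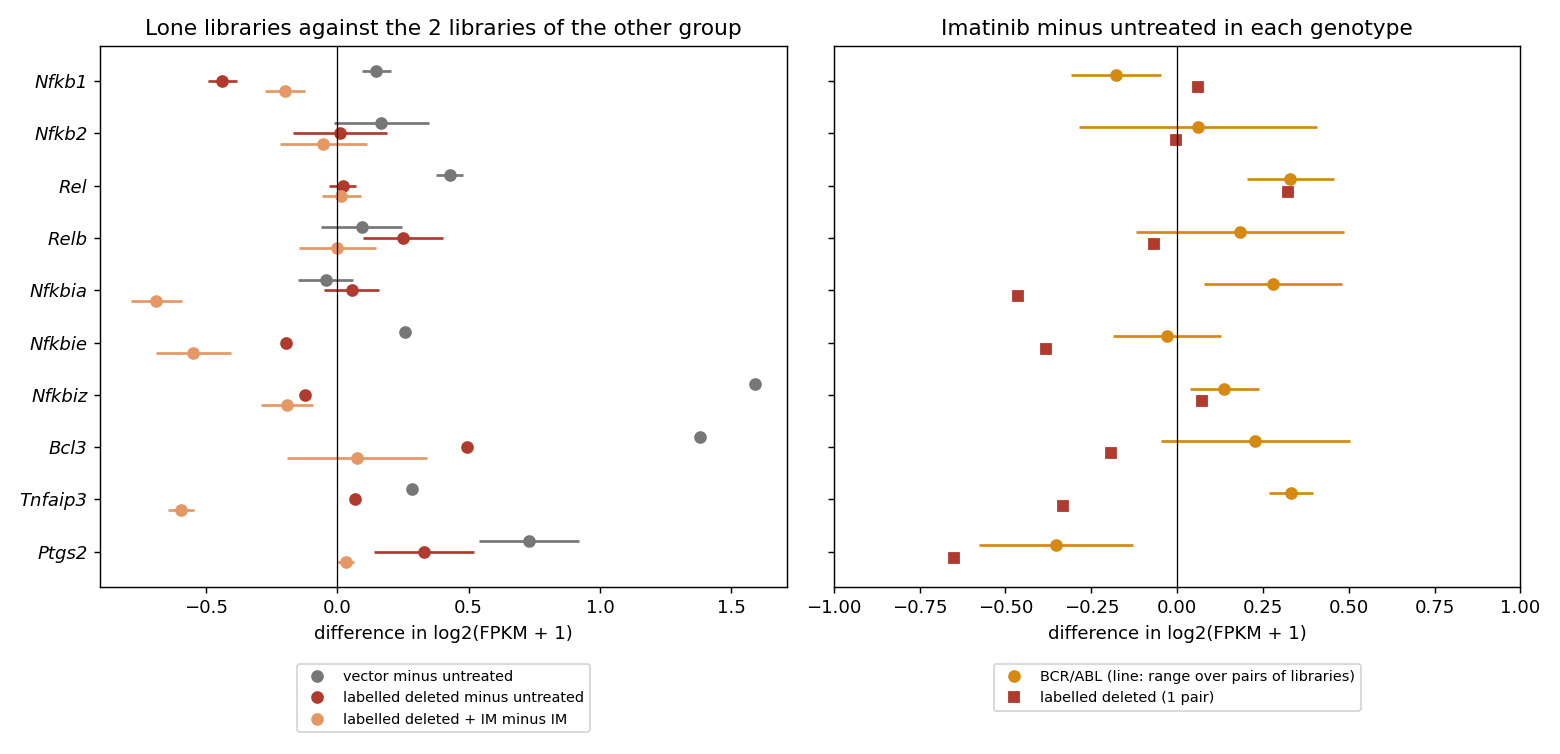
Differences on the log2(FPKM + 1) scale for the 10 genes. Left, each lone library minus the mean of the 2 libraries it is set beside, with lines from the lower to the higher of the 2 single differences; right, imatinib minus untreated in wild-type BCR/ABL cells (line: range over pairs of libraries) and in the 1 pair labelled deleted. Nfkbiz at 1.59 and Bcl3 at 1.38 in the vector library stand furthest right in the left panel. In the right panel, the points of Nfkb1, Nfkb2, Relb, Nfkbia, Bcl3 and Tnfaip3 lie on opposite sides of 0, furthest apart for Nfkbia and Tnfaip3.

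Elsewhere in the pathway DFC+BCI gave both rises and falls, to be read against 17.8% of all genes rising and 18.4% falling. Of 13 genes of the IKK complex and its upstream kinases, 6 rose and 1 fell (median 0.15). Map3k8, which encodes the kinase TPL2 that p105 holds in check, rose from 4.22 and 4.14 FPKM to 12.6 and 13.01 FPKM (1.41, limma adjusted p = 1.2e-05), Ripk2 rose by 0.85 and Map3k14, the NIK kinase of the non-canonical branch, by 0.84. Ikbkg, the regulatory IKK subunit, fell by 0.26. Of 16 adaptors, 6 rose and 2 fell (median 0.09), with Ticam1 and Irak2 each at 0.93, Bcl10 at 0.68, Traf1 at -0.29 and Irak3 at -0.28. Of 14 receptors, 2 rose and 3 fell (median -0.08), near those shares: Nod2 rose by 0.67, and the TNF receptor gene Tnfrsf1b fell by 0.89, from 77.6 and 70.8 to 40.4 and 38.8 FPKM. None of the other 3 subunit and IkB genes passed (median 0.15).

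Among 26 other NF-kB target genes, 14 rose and 3 fell with DFC+BCI (median 0.33), and 17.8% of all genes rose. The neutrophil chemokine gene Cxcl2 rose from 5.91 and 8.37 FPKM to 115.1 and 104.9 FPKM (3.78, SE 0.137, limma adjusted p = 6.5e-06), Cxcl1 rose by 2.35 and the stress gene Gadd45b by 2.05. Il6, a classic target of NF-kB and of IkBζ, went the other way with the drug pair, from 28.7 and 30.6 FPKM untreated to 18.7 and 19.0 FPKM, where it fell by 0.63 (SE 0.0627, limma adjusted p = 0.00043). With all 3 drugs Il6 read 10.9 and 10.4 FPKM, and with imatinib 13.7 and 13.8 FPKM (-1.06, limma adjusted p = 0.000599), in cells grown with added IL-6 protein. Of the 26 targets, imatinib raised 2 and lowered 6, where 0.481% of all genes rose and 1.63% fell. Il1a (-1.06) and Ccl3 (-0.90) were among those lowered, and Birc2 (0.37) among those raised.

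Of 14 other regulators tested, 4 rose and 2 fell with DFC+BCI (median 0.13), beside 17.8% and 18.4% of all genes. Not all of these are inhibitors of the pathway, and Sharpin is one that is not. Zc3h12a, whose product Regnase-1 cuts inflammatory mRNAs, rose by 0.92, the A20-binding genes Tnip3 and Tnip2 by 0.45 each, and Sharpin and Commd1 fell by 0.24 each. Of 11 tested genes of prostaglandin synthesis and sensing, 1 rose and 3 fell, beside the same shares. The prostaglandin E2 receptor gene Ptger4 rose by 0.82, Ptgs1, the constitutive counterpart of Ptgs2, fell by 0.41 from 77.1 and 71.6 to 54.9 and 56.9 FPKM, and Pla2g4a fell by 0.24. In the libraries labelled deleted, Ikbkg read 24.9 and 22.6 FPKM against 7.66 to 10.5 FPKM in the 9 others, and the interleukin-1 receptor gene Il1r1 read 10.98 and 8.75 FPKM against 1.37 to 5.83 FPKM.

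**Figure D4:**
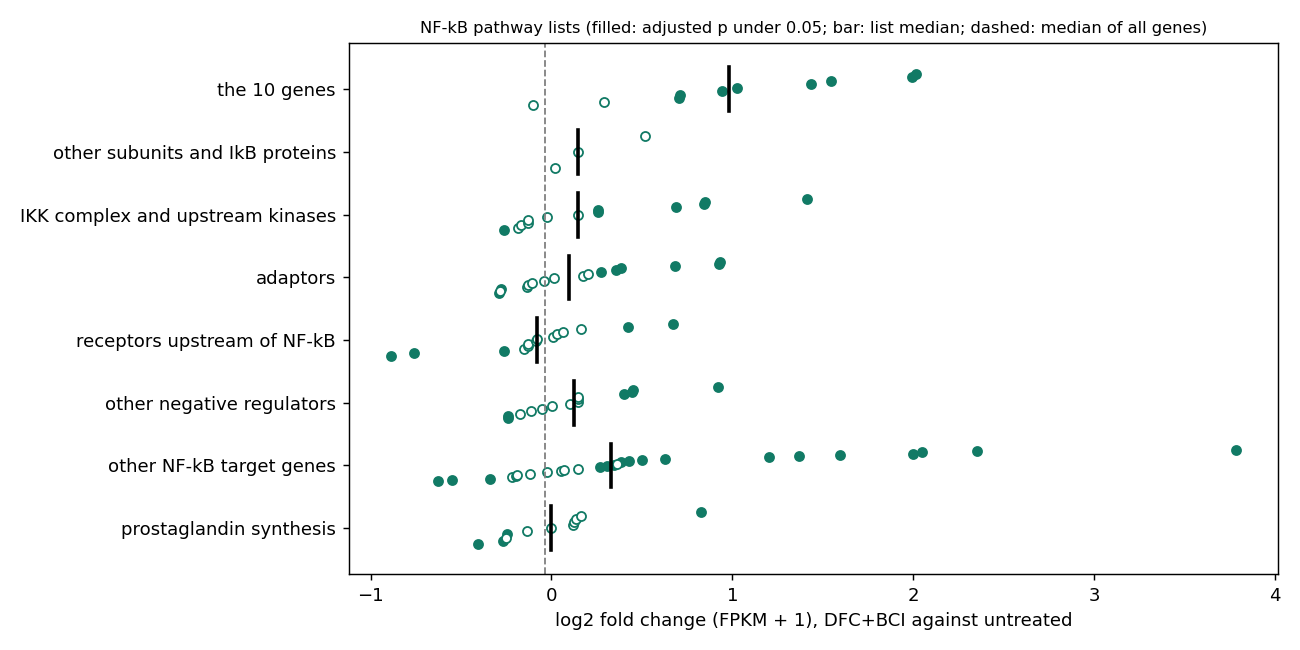
Log2 fold change on the log2(FPKM + 1) scale for DFC+BCI against untreated cells, 1 point per gene, by pathway list, with filled points for an adjusted p under 0.05, a bar at each list's median and a dashed line at the median of all genes (-0.03). The 10 genes have a median of 0.98, and the other lists have medians from -0.08 to 0.33, with Cxcl2 furthest right at 3.78. The list labelled other negative regulators does not hold inhibitors alone.

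Profiles over the 7 groups were compared for the 7 of the 10 genes whose group means spanned at least 1 on the log2 scale, by the root mean square difference of centred log2(FPKM + 1) means among 8908 genes. Tnfaip3 was closest to Icam1, an adhesion gene on the target list, at 0.0863, and Icam1 had group means of 23.4 FPKM untreated, 25.4 with imatinib, 55.1 with DFC+BCI, 52.9 with all 3 drugs, 24.1 with the vector, and 22.5 (untreated) and 18.5 (imatinib) under the deletion label. Rel was closest to Zfp959 (0.106), Arid4b (0.138) and Atg2a (0.138), and Arid4b was also next to Tnfaip3 (0.124). Nfkbia was closest to Nod2 (0.143), Nfkbie to Tle4 (0.121) and Bcl3 to Dennd1a (0.109). Nfkbiz and Ptgs2 had less close neighbours, and also the largest spans of the 10 (2.20 and 2.37), with which this distance tends to grow. The nearest to Nfkbiz were Arid5a at 0.196, Hist1h3c at 0.208 and Btg2 at 0.223. The nearest to Ptgs2 were Fosl2 at 0.232, Tiparp at 0.240 and Ier3 at 0.247. Among the 10 genes themselves, the closest pair was Nfkb2 and Relb (0.170), and Tnfaip3 was closer to Nfkbie (0.187) than to Rel (0.218). Nfkb2 and Relb spanned only 0.29 and 0.70, and this distance is small between genes that change little, whatever their pattern.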

How the data were processed

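RNA-seq values of 11 libraries in 7 groups were used as deposited. TopHat, Cufflinks and mm10 are named, without versions, in the submitters' processing notes. No header states a unit, and the deposited values were read as FPKM because Cufflinks writes values of this form. Depth could not be known without read counts, so no counting interval is attached to any value. Of 23444 rows, 5019 were 0 in every library and 27 carried a date in place of a symbol. The sources do not say how reads fitting several genes were shared.

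A gene was tested if 2 or more libraries reached 1 FPKM (11442 genes). Tests were run on log2(FPKM + 1), which understates changes of low genes, with limma 3.58.1 in R 4.3.3 (trend, 2-sided, Benjamini-Hochberg over all 11442 genes, threshold 0.05). A common fit over the 11 libraries, with a coefficient for each group, gave 4 residual and 3.20 prior degrees of freedom. Lone libraries were compared by size only. The fit was also run on simulated data with independent noise and far fewer changed genes than were called here. That setting differs from these data, so the run checks the code and not the error rate.

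The 10 genes, the pathway and marker lists and the motifs were chosen with earlier results of these data known. Named genes are the 10, Fos, Dusp1, up to 3 list genes per direction with the largest change among those past the test at 5 FPKM or more, and the 3 nearest profiles; Rela, Nfkbib, Ikbkg and Il1r1 were named after their values were seen. Gene positions are from GENCODE vM21 (GRCm38) and start windows from RefSeq (GRCm38.p6). Treatment doses are not given because the unit in the labels is in doubt. Alternatives were 2 pseudocounts, 2 filters, 2 scalings, no trend, the compared groups alone and leaving out each duplicate.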

Additional observations from a re-analysis of the deposited data

Results flagged for a closer look

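For 3 of the 10 genes, imatinib minus untreated in the pair of libraries labelled deleted had the opposite sign to every pair of wild-type BCR/ABL libraries. Of all 11442 genes tested, 1801 (15.7%) met the same rule, so nothing is read from the count. With 1 library on each side in the cells labelled deleted, the difference was not tested. Nfkbia was at -0.46 on the log2(FPKM + 1) scale in the cells labelled deleted (53.9 FPKM untreated, 38.8 FPKM with imatinib) and at 0.28 in wild-type cells (0.08 to 0.48 over pairs of libraries). Tnfaip3 was at -0.33 (10.1 and 7.85 FPKM) against 0.33 (0.27 to 0.40). Nfkb1 was at 0.0612 (38.3 and 40.0 FPKM) against -0.18 (-0.31 to -0.05). None of these genes passed the test for imatinib in wild-type cells.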

How the results depend on the processing

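Of 23 calls on the 10 genes, 20 held in all 16 alternatives of their comparison; Relb with DFC+BCI, Relb with all 3 drugs and Bcl3 with all 3 drugs against imatinib each lost theirs in some. Without the filter, Relb with all 3 drugs had an adjusted p of 0.0706 and Bcl3 0.0583, and in fits of the compared groups alone 0.0503 and 0.0558. Of 37 results not called, 3 passed in some alternative. For imatinib, 1 of the 10 genes was called with a pseudocount of 0.1 and 1 with the 5 FPKM filter. With equal totals, Nfkb1 with DFC+BCI reversed to 0.0134. Over all genes, calls for imatinib were 122 with no filter and 27 in the compared groups alone (241 as reported), for all 3 drugs against DFC+BCI 7 in the compared groups alone (13), and for the direct test of a different imatinib effect 2 with no filter, 11 with quantile normalization and 7 with no trend (17). The cause was not tested. Equal totals made 75.0% of calls in that direct test higher, against 58.8%.

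Leaving out 1 duplicate at a time, which assumes that the lone library left varies like the other groups, gave 56 to 118 calls for imatinib, 2132 to 4002 for DFC+BCI, 2319 to 3596 for all 3 drugs, 2555 to 4017 for all 3 drugs against imatinib, 1 to 7 for all 3 drugs against DFC+BCI, and 2 to 12 for the direct test. All 8 omissions moved the imatinib count and the count for all 3 drugs against DFC+BCI by over 1.5 times. DFC+BCI gave 2132 without its library a and 2526 without b, all 3 drugs 2469 without a and 2319 without b, and all 3 drugs against imatinib 2555 without library b of all 3 drugs and 2565 without library a of imatinib. The direct test gave its lowest count without library a of DFC+BCI. Signs reversed only in results that were not called. For imatinib, Nfkb2 ran from -0.12 to 0.24, Nfkbie from -0.17 to 0.11 and Bcl3 from -0.0389 to 0.49. For all 3 drugs, Nfkb1 against imatinib ran from -0.0407 to 0.11, and against DFC+BCI Nfkb2 ran from -0.14 to 0.0394 and Relb from -0.26 to 0.10. In the direct test, Nfkb2 ran from -0.29 to 0.0658, Nfkbie from -0.24 to 0.0484, Nfkbiz from -0.15 to 0.0481 and Ptgs2 from -0.10 to 0.28.

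The planned replicate block was not run. No paired analysis was possible because the table's columns carry letters or no mark at all, not the numbers of the titles. With 1 library, the vector and labelled-deleted values have no error, and unknown depth leaves the precision of low genes such as Ptgs2 unmeasured.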
